A study of Mus musculus with 6 samples.

Results

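The genes described here are 9 genes named for their role in B lymphocytes: Cd79a, Cd79b, Ms4a1, Pax5, Ebf1, Blk, Vpreb1, Igll1 and Fcrla. They were taken by name from a table of 19938 genes measured in mouse cells on the path to T cells, and all 9 were measured, each by 1 probe set. Total RNA from 3 populations was hybridised to Affymetrix gene arrays, with 2 arrays for each population. Cells named HSC were bone marrow cells transduced with the fusion protein NUP98-HOXB4, a construct that lets blood progenitors expand, and were kept in culture with the cytokines IL6 and SCF. Cells named ProT carried the same fusion and were grown with the Notch1 ligand DLL4 and with IL7. Cells named DP were double positive thymocytes that arose after such ProT cells were injected into Rag2-/- mice. The fusion was thus shared by all 3 populations, and no population without it was analysed here. Rag2-/- hosts cannot rearrange antigen receptor genes and lack mature T and B cells of their own, but keep early B cell precursors, NK cells and myeloid cells. How donor cells were separated from host cells is not given in the sources used here.

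B cells recognise antigen with an immunoglobulin that signals through the chains encoded by Cd79a and Cd79b. Before a light chain is made, the surrogate light chain of Vpreb1 and Igll1 takes its place in the pre-B cell receptor. Ebf1 and Pax5 are the transcription factors that start and hold the B cell program, and Notch signals turn lymphoid progenitors away from it towards the T lineage.

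Signals are RMA values on the log2 scale, so a difference of 1 is a doubling of measured signal. Array medians over all probe sets were 6.73 to 6.77 in HSC and ProT and 6.90 to 6.91 in DP, and replicate arrays had Pearson correlations of 0.991 to 0.997 over all probe sets. All 8 DP stage markers, such as Cd4, Cd8a and Rag1, were higher in DP than in ProT, and all 7 measured ProT markers, such as Cd3e and Gata3, were higher in ProT than in HSC. Of 7 measured progenitor markers of HSC, 5 were lower and 1 higher in DP than in HSC. Procr, a surface marker of stem cells, was at 6.13 in HSC and was not called. Slamf1 went the other way, with means of 5.94 in HSC, 7.30 in ProT and 11.53 in DP, and was called higher at each step. In ProT against HSC 2 of the 7 were higher and 1 lower. The granulocyte and monocyte markers had a mean log2 signal of 11.80 to 11.98 in the HSC arrays and 6.98 to 7.12 in DP. As a reference for signal from genes not known to work in blood cells, 1027 olfactory receptor genes were used. The 95th percentile of their mean signals was 6.004, and a group mean at or below it is called within the olfactory range. The number of arrays limits the precision. Whether replicates are separate cultures or animals is not stated in the labels, so the p-values reflect only how far these samples differ, which may be technical.

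Most of these B lineage genes were flat between HSC and ProT and higher in DP. Between ProT and HSC, limma with Benjamini-Hochberg adjustment called 1 of the 9 higher (Blk) and 1 lower (Cd79b), where 7.85% of all genes were called higher and 6.9% lower. Between DP and ProT 6 of 9 were called higher (Cd79a, Cd79b, Ms4a1, Pax5, Ebf1 and Fcrla), where 14.5% of all genes were called higher and 18.1% lower. None was called lower by limma, also at an unadjusted p below 0.05 (0 of 9). Between DP and HSC 6 of 9 were called higher (Cd79a, Ms4a1, Pax5, Ebf1, Blk and Fcrla), against 16% of all genes higher and 18.8% lower. In that comparison 0 were called lower by limma and 1, Igll1, was lower at an unadjusted p below 0.05. The median log2 change of the 9 was -0.054 from HSC to ProT, 0.50 from ProT to DP and 0.64 from HSC to DP, beside -0.0075, 0.018 and 0.019 over all genes. The comparisons share groups, so the calls in one are not independent of those in another. In samples made of many cells, fewer cells of a type and less RNA per cell cannot be told apart.

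**Figure D1:**
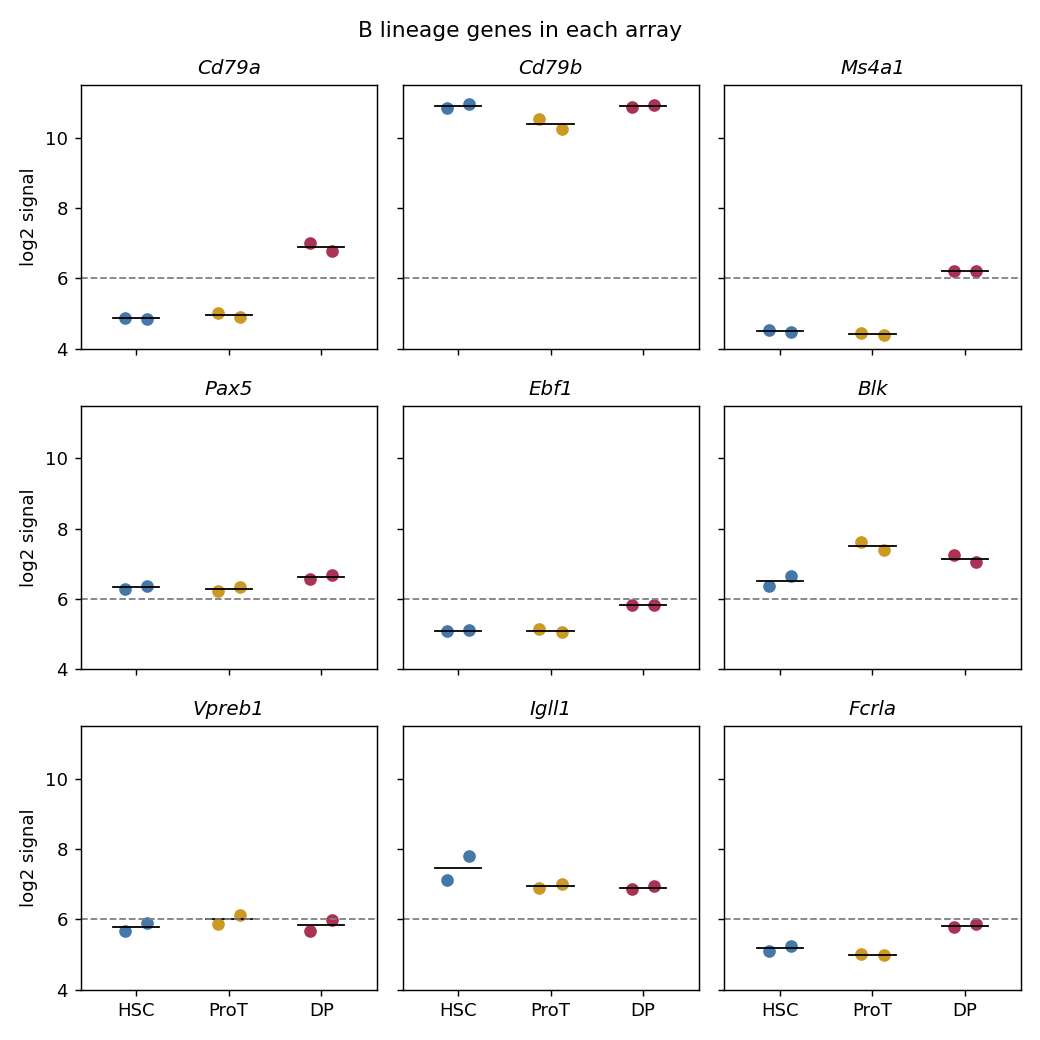
Log2 signal of the 9 B lineage genes on the vertical axis in each of the 6 arrays, grouped by population on the horizontal axis. Points are arrays, black bars are group means, and the dashed line is the 95th percentile of olfactory receptor genes at 6.004. Cd79a and Ms4a1 rise above the line only in DP, and Cd79b stays above 10.2 in all 6 arrays.

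The promoter windows of 4 members are shown to set genes that rose in DP beside genes that were not called in any comparison. Cd79a and Fcrla are of the first kind, and the surrogate light chain genes Vpreb1 and Igll1 of the other. RefSeq windows of the GRCm38.p6 assembly were available here for 6 of the 9 members. The sequences below are the 250 bases before an annotated start, 5′ to 3′ on the strand of the gene. The windows of Cd79a, Vpreb1 and Igll1 adjoin the 5′ end of the annotated gene. The Fcrla window lies inside the annotated span of its gene, chr1:170917594-170932216, and so precedes a start within that span. Capitals mark matches, on either strand, to the EBF core CCCNNGGG, the E-boxes CAGCTG and CAGGTG bound by E proteins, and the PU.1 core GAGGAA.
Cd79a, chr7:24897247-24897496, plus strand: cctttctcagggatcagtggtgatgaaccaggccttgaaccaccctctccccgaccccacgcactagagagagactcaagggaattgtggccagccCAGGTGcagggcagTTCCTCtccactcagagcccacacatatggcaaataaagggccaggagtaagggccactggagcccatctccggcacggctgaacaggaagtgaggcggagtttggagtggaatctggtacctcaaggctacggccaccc
Fcrla, chr1:170927584-170927833, minus strand: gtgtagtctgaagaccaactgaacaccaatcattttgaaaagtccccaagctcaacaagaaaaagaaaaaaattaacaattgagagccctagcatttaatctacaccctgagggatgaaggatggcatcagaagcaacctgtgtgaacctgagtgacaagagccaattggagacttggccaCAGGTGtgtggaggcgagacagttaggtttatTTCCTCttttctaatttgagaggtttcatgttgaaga
Vpreb1, chr16:16869256-16869505, minus strand: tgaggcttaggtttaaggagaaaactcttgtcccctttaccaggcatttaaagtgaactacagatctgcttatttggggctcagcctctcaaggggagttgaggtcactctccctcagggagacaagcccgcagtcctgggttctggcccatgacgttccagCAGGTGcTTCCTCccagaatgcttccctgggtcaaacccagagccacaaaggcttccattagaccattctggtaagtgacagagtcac
Igll1, chr16:16863986-16864235, minus strand: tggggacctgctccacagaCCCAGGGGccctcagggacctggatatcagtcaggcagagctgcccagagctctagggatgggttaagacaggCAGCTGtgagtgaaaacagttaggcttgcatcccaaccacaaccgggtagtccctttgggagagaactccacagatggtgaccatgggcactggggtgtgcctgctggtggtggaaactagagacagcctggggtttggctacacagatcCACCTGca
Cd79a, Fcrla and Vpreb1 each hold 1 E-box and 1 PU.1 core match, and Igll1 holds 1 EBF core and 2 E-box matches. None of these matches overlapped a match to another of the motifs. Among all 32851 windows of the same length, 11.8% held the EBF core, 27.7% an E-box and 23.3% the PU.1 core. The E-box and PU.1 matches therefore occurred both in genes that rose in DP and in Vpreb1, which was not called. The Pax5 window and the first of 2 Ebf1 windows held no match to these letters, and the other Ebf1 window held 1 PU.1 core. Only exact matches to the patterns were marked, so a window without one can still hold a variant of the site. The matches are descriptions of letters and do not show binding.

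The receptor signalling chains behaved differently from each other. Cd79a, which encodes the Igα chain that carries the signal of the B cell receptor, read 4.88 and 4.84 in the HSC arrays, 5.01 and 4.90 in ProT, and 7.01 and 6.77 in DP. Both DP arrays lay at least 1.76 above every ProT array, while the HSC and ProT values were 0.03 apart at their nearest. The log2 change from ProT to DP was 1.93 ± 0.10 (SE), a ratio of 3.81 in measured signal (adjusted p = 9.34e-05), and that from HSC to DP was 2.03 ± 0.10 (adjusted p = 5.65e-05). From HSC to ProT the change was 0.10 ± 0.10 (adjusted p = 0.669), and both of these groups had means within the olfactory range. The size of a rise from such a low signal is a change of measured signal and not of transcript number.

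Cd79b, which encodes the partner chain Igβ, was far above the olfactory range in all 3 populations. Its values were 10.85 and 10.95 in HSC, 10.54 and 10.25 in ProT, and 10.87 and 10.92 in DP. Both ProT arrays were below all others, with 0.30 between the nearest HSC and ProT values. It fell by 0.50 on the log2 scale from HSC to ProT (SE 0.11, adjusted p = 0.0377) and rose by 0.50 ± 0.11 from ProT to DP (adjusted p = 0.0211). HSC and DP overlapped (change -0.0086 ± 0.11, adjusted p = 0.968, with a positive sign after quantile normalization or median centring). The call of the fall was lost without HSC replicate 1 (adjusted p = 0.0513), HSC replicate 2 (0.126), ProT replicate 2 (0.0929) or either DP array (0.108), with a replicate block (0.0609) and in a fit of ProT and HSC alone (0.108). The call of the rise was lost without ProT replicate 2 (adjusted p = 0.0631), DP replicate 1 (0.0993) or DP replicate 2 (0.133).

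The surrogate light chain genes were not called in any comparison. Vpreb1, the variable-like part of the surrogate light chain, read 5.66 and 5.91 in HSC, 5.86 and 6.13 in ProT, and 5.67 and 5.99 in DP. All 3 groups overlapped and all 3 means were within the olfactory range. The log2 changes were 0.21 ± 0.16 from HSC to ProT and -0.16 ± 0.16 from ProT to DP (adjusted p = 0.506 and 0.514). Leaving out 1 array moved them between 0.076 and 0.34 and between -0.32 and -0.0021. Igll1, the constant-like part known as λ5, read 7.11 and 7.79 in HSC, 6.90 and 7.00 in ProT, and 6.85 and 6.94 in DP. Its HSC arrays were the highest and differed from each other by more than ProT differed from DP. The change from HSC to ProT was -0.50 ± 0.21 (adjusted p = 0.217), and that from HSC to DP was -0.55 ± 0.21 (adjusted p = 0.103). Without HSC replicate 1 these became -0.84 (adjusted p = 0.00429) and -0.90 (adjusted p = 0.00168), and without HSC replicate 2 they became -0.16 (adjusted p = 0.459) and -0.21 (adjusted p = 0.173). In both fits the lone HSC array is assumed to vary as the ProT and DP arrays do, and the SE went from 0.21 to 0.097 because the spread between the HSC arrays no longer entered it. From ProT to DP the change was -0.057 ± 0.21, with a positive sign after median centring.

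The transcription factor genes Ebf1 and Pax5 both rose in DP by less than 1 on the log2 scale. Ebf1, the early B cell factor that opens B lineage genes, read 5.08 and 5.11 in HSC, 5.14 and 5.05 in ProT, and 5.81 and 5.81 in DP. HSC and ProT overlapped, and both DP arrays were at least 0.67 above them. The log2 change from ProT to DP was 0.72 ± 0.07 (adjusted p = 0.000951), and that from HSC to DP was 0.72 ± 0.07 (adjusted p = 0.000734). The DP mean of 5.81 was still within the olfactory range, so this is a difference between low signals. Pax5, the factor that commits cells to the B lineage, read 6.29 and 6.37 in HSC, 6.21 and 6.33 in ProT, and 6.56 and 6.67 in DP. The DP arrays were highest, by 0.19 at the nearest. The change was 0.34 ± 0.09 from ProT to DP (adjusted p = 0.028) and 0.29 ± 0.09 from HSC to DP (adjusted p = 0.047). The call against ProT was lost without ProT replicate 1 (adjusted p = 0.128), DP replicate 1 (0.075) or DP replicate 2 (0.164). The call against HSC was lost without any 1 of the 6 arrays, with adjusted p up to 0.232, after quantile normalization (adjusted p = 0.0837) and in a fit of DP and HSC alone (0.0578).

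Blk was the only member called higher in ProT than in HSC. It encodes a Src family kinase of B cells that is also known from some T cells. It read 6.36 and 6.64 in HSC, 7.61 and 7.38 in ProT, and 7.25 and 7.04 in DP. Both ProT arrays were above both DP arrays, and both DP arrays above both HSC arrays. The log2 change from HSC to ProT was 0.99 ± 0.14 (adjusted p = 0.00707), a ratio of 1.99, and that from HSC to DP was 0.64 ± 0.14 (adjusted p = 0.0155). The difference between DP and ProT, -0.35 ± 0.14, did not pass (adjusted p = 0.123), so the order of these neighbours is not settled. The call of DP against HSC was lost without DP replicate 1 (adjusted p = 0.109) or DP replicate 2 (0.0523). Blk is itself one of the 7 measured genes of the gamma delta T cell list. Of this list 3 were higher in ProT than in HSC, namely Blk, the transcription factor gene Maf (log2 change 2.36) and the receptor segment Trgv1 (7.60), and 0 were lower by limma (0 at an unadjusted p below 0.05). The median log2 change of the list was 0.30, and Sox13 (0.11), Zbtb16 (0.076), Il23r (0.30) and Il17a (0.13) were not called. The mean log2 signal of the list was 6.73 to 6.95 in HSC, 8.48 to 8.50 in ProT and 7.61 in both DP arrays. Blk is counted in this mean, and Trgv1 had the largest change of the list. Il17a and Il23r, of the IL17 branch of these cells, were at 6.20 and 5.43 in ProT. The part of such cells in the Blk signal was not tested.

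The surface gene Ms4a1 and the Fc receptor-like gene Fcrla had the same outline as Cd79a, with a rise in DP. Ms4a1, which encodes the B cell surface protein CD20, read 4.52 and 4.48 in HSC, 4.43 and 4.37 in ProT, and 6.21 and 6.19 in DP. The DP arrays lay 1.76 above the nearest ProT array and 1.68 above the nearest HSC array. The log2 change was 1.80 ± 0.07 from ProT to DP, a ratio of 3.47 in measured signal (adjusted p = 3.26e-05). From HSC to DP it was 1.70 ± 0.07 (adjusted p = 2.83e-05), and from HSC to ProT -0.10 ± 0.07 (adjusted p = 0.5). Fcrla, an intracellular protein of B cells that binds immunoglobulin, read 5.11 and 5.24 in HSC, 5.002 and 4.992 in ProT, and 5.77 and 5.86 in DP. Its DP arrays were above all others, and its change was 0.82 ± 0.08 from ProT to DP (adjusted p = 0.000858) and 0.64 ± 0.08 from HSC to DP (adjusted p = 0.00172). All 3 group means of Fcrla were within the olfactory range, while the DP mean of Ms4a1, 6.20, was just above it.

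**Figure D2:**
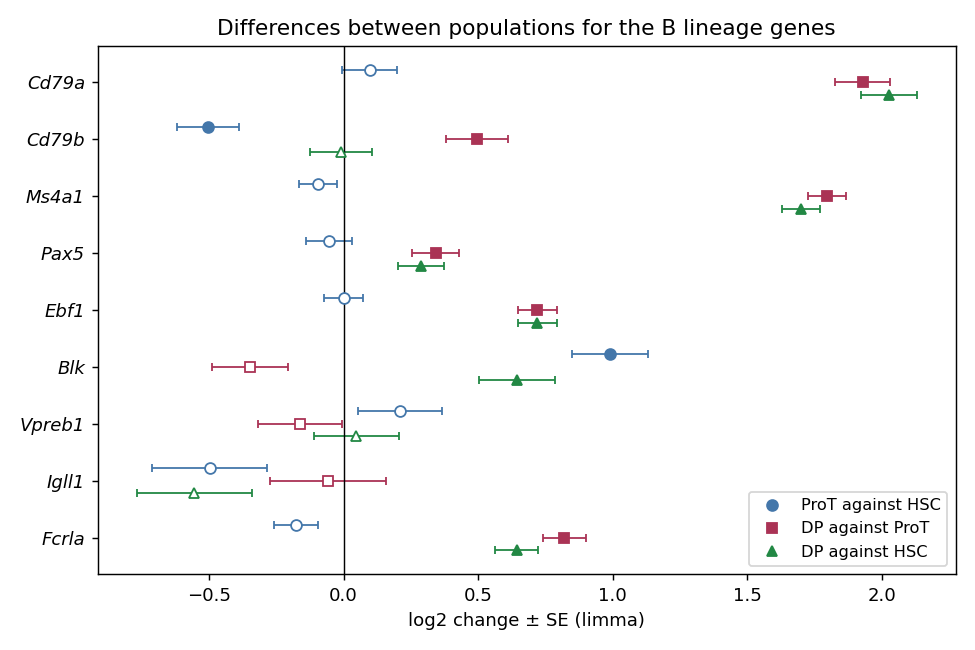
Log2 change with its standard error from limma on the horizontal axis for each B lineage gene on the vertical axis, for ProT against HSC (circles), DP against ProT (squares) and DP against HSC (triangles). Filled symbols passed an adjusted p below 0.05. Cd79a and Ms4a1 are the only members with a change of at least 1, and Vpreb1 and Igll1 have open symbols in all 3 comparisons.

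The rises in DP were set beside the behaviour of low signals in general, since 5 of the 6 members that rose from ProT to DP had ProT means below the median of all gene values, 7.17. Over the 1027 olfactory receptor genes the median log2 change from ProT to DP was 0.027, with quartiles of -0.026 and 0.096. Of these genes 17 (1.66%) were called higher and 9 (0.876%) lower. At an unadjusted p below 0.05 in limma, 48 were higher and 15 lower, so the small shifts among them were more often upward. When every array was centred by its median, the median change over all genes went from 0.018 to 0.14 in this comparison, and the share of higher genes among all calls went from 44.6% to 61.2%. The same 6 members were called higher after centring and after quantile normalization. Both settings called more genes higher in general: 4680 of 19938 after centring and 3629 after quantile normalization, against 2899 in the main fit. Under a filter that kept only genes at or above 7.17 in at least 2 arrays, 2 of the 9 members, Cd79b and Blk, remained to be tested.

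**Figure D3:**
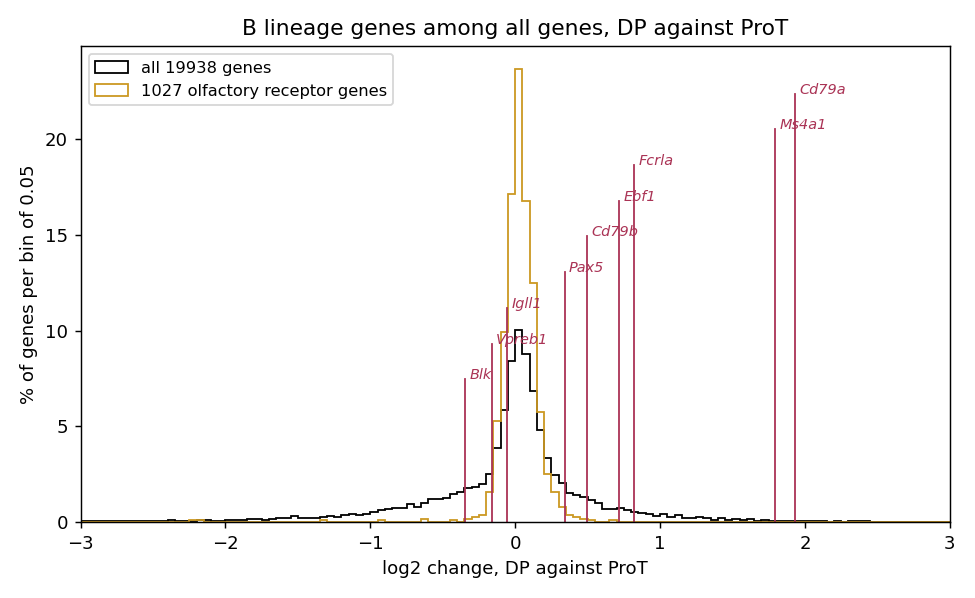
Histogram of the log2 change of DP against ProT, with the percentage of genes in bins of 0.05 on the vertical axis, for all 19938 genes (black) and 1027 olfactory receptor genes (yellow). Red lines mark the 9 B lineage genes, and their heights serve only to separate the names. Changes beyond 3 in either direction are not drawn. Olfactory receptor genes lie close to 0, Blk, Vpreb1 and Igll1 lie below 0 (Igll1 above 0 after median centring), and Cd79a and Ms4a1 lie farthest to the right.

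Genes that mark other stages of the B lineage, and genes that mark plasmacytoid dendritic cells, were examined beside the rises in DP. Of 7 measured markers of mature and follicular B cells, 4 were higher and 3 lower in DP than in ProT. Those higher were Fcer2a, the low affinity IgE receptor CD23, at 7.05 and 6.31 in DP against 5.16 and 5.20 in ProT (log2 change 1.5015 ± 0.23, adjusted p = 0.00415), and, with smaller changes, Ighm (0.56), Cd22 (0.53) and Cr2 (0.31). Those lower were the chemokine receptor gene Cxcr5 (-4.40), Cd180 (-2.33) and the BAFF receptor gene Tnfrsf13c (-0.75). The summed log2 signal of this list was 46.6 to 46.8 in HSC, 50.6 to 51.1 in ProT and 46.0 to 46.6 in DP. Cxcr5, at 5.09 in HSC, 9.70 in ProT and 5.30 in DP, had the largest change of the list at both steps. Cr2, the complement receptor CD21, was within the olfactory range in all 3 populations, at 5.07 in DP. Of 6 plasma cell markers 0 were higher and 2 lower in DP than in ProT by limma (0 and 5 at an unadjusted p below 0.05). Their summed log2 signal was 43.8 to 44.7 in HSC, 49.2 to 50.7 in ProT and 44.5 in both DP arrays. Jchain, at 4.80 in HSC, 8.63 in ProT and 5.20 in DP, had the largest change of these markers at both steps. Only Jchain and Mzb1 were called higher in ProT than in HSC. Of 7 measured markers of plasmacytoid dendritic cells, 4 were higher and 2 lower, with summed log2 signals of 51.3 to 52.3 in HSC, 61.2 to 61.6 in ProT and 66.7 to 67.2 in DP. The 4 higher were Siglech (log2 change 1.04 ± 0.09), Pacsin1 (1.06 ± 0.11), Ly6d (3.37) and Ccr9 (1.83), and thymocytes are also known to express Ly6d and Ccr9. Ly6d and Ccr9 had the largest changes of the list. Bst2 (-0.90, adjusted p = 0.00733) and Cox6a2 (-0.67, adjusted p = 0.00501) were lower by limma, and Tcf4, a defining factor of these cells, was not called (-0.12). The part of B cells or plasmacytoid dendritic cells in the rises of Cd79a, Ms4a1, Ebf1, Pax5 and Fcrla was not tested.

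The signalling genes downstream of the B cell receptor did not follow Cd79a as a group. Of 3 other measured chains, 1 was called higher in DP than in ProT and 0 lower by limma (2 and 0 at an unadjusted p below 0.05). Ighm, the heavy chain gene of IgM, was at 6.11 ± 0.05 (SD, n = 2) in HSC, 6.18 ± 0.0048 in ProT and 6.74 ± 0.19 in DP on its strongest probe set. It rose from ProT to DP (adjusted p = 0.00945). Its other probe sets went from 5.77 to 6.16 and from 4.77 to 5.64 between the same groups, also upward. Of the remaining measured chains, Vpreb2 and Vpreb3 were not called in any comparison, with Vpreb3 at 0.26 ± 0.08 from ProT to DP (adjusted p = 0.0591). Of 13 measured signalling genes, 5 were higher and 6 lower in DP than in ProT, with a median log2 change of -0.17. Blnk, the adaptor that links the receptor to its effectors, rose by 0.99 ± 0.09, from 5.27 and 5.31 to 6.38 and 6.18. Btk, the kinase it recruits, changed by -3.72 ± 0.08 (adjusted p = 7.77e-06) and reached 5.75 in DP, within the olfactory range. Plcg2, the phospholipase of the pathway, changed by -3.62 ± 0.11, and Pik3ap1, an adaptor for PI3 kinase, by -2.09 ± 0.09. Syk, the kinase that binds the phosphorylated receptor chains, changed by -0.92 ± 0.09 and remained at 9.19 in DP. In HSC, where Cd79a was within the olfactory range, Btk, Plcg2, Pik3ap1 and Syk were at 9.90, 11.36, 11.24 and 10.32. Which cells gave these signals was not tested. Ptpn6, a phosphatase that damps the signal, was not called in any comparison (0.12 ± 0.10). Between ProT and HSC 2 of the 13 were higher and 3 lower, and between DP and HSC 5 were higher and 6 lower, with median log2 changes of -0.070 and -0.30.

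Transcription factors and surface genes known from B cells also went both ways. Of 17 transcription factors of the B lineage, many of which act in other blood cells too, ProT exceeded HSC for 9 and was below it for 3. In DP against ProT 6 were higher and 5 lower, and in DP against HSC 9 were higher and 5 lower. Ikzf3, the Ikaros family member Aiolos, rose by 2.33 ± 0.08 from HSC to ProT and by 3.67 ± 0.08 from ProT to DP. Lef1, a nuclear partner of β-catenin, rose by 0.86 ± 0.14 and 5.11 ± 0.14. Spi1, which encodes PU.1, fell at both steps, with changes of -1.01 ± 0.22 and -3.42 ± 0.22. Tcf3, which encodes the E proteins E12 and E47, was not called in any comparison (0.38 ± 0.13 from HSC to DP, adjusted p = 0.0669). Among 16 measured surface genes, ProT exceeded HSC for 5 and was below it for 2, with 5 higher and 6 lower in DP than in ProT, and 5 higher and 4 lower in DP than in HSC. Cxcr5 was at 5.09 in HSC, 9.70 in ProT and 5.30 in DP, a rise of 4.62 ± 0.12 followed by a fall. Ly86, which encodes the partner of Cd180, changed by -3.45 ± 0.49 and then by 5.68 ± 0.49, to 12.14 in DP. Bst1, a surface enzyme of early B cells and myeloid cells, was highest in ProT, with changes of 1.98 ± 0.39 and -3.81 ± 0.39. Cd37, a tetraspanin, was at 12.04 in HSC, 11.96 in ProT and 11.89 in DP and was not called. The lists of receptor chains, receptor signalling, transcription factors and surface genes together held 48 measured genes. Of these, 16 were higher and 17 lower in DP than in ProT, with a median log2 change of -0.037. Of the 9 members 6 were higher and 0 lower. Members and lists were chosen with earlier results of these data known, so the contrast between them is a description and not a test.

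**Figure D4:**
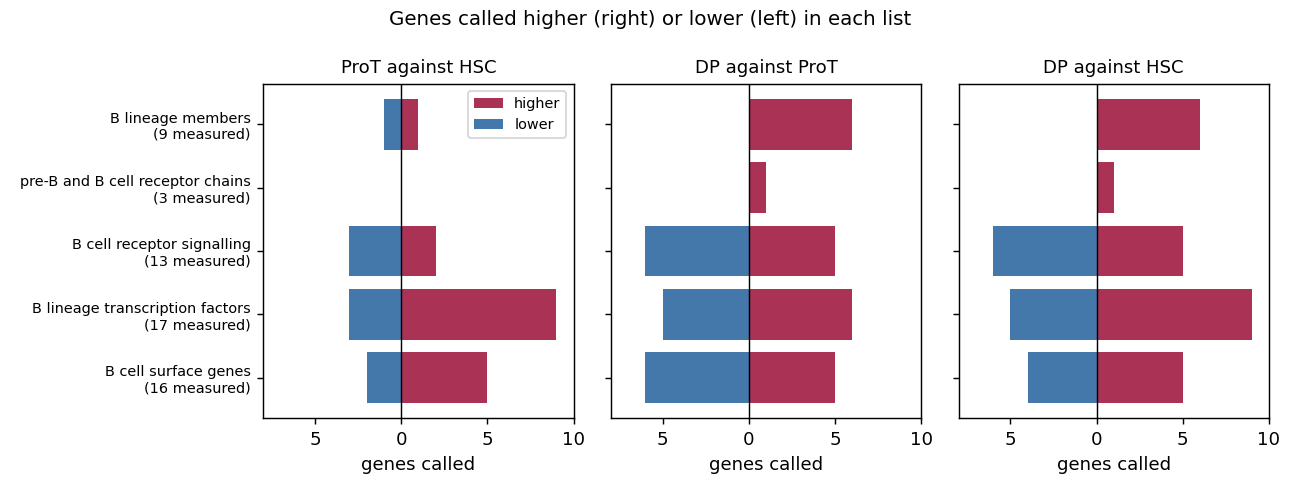
Number of genes called by limma at an adjusted p below 0.05, higher to the right and lower to the left, in the B lineage genes and in 4 lists of other B lineage genes, for the 3 comparisons. Only the lists of members and of receptor chains have no bar to the left in the comparisons with DP.

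Cd79a and Ms4a1 were the members whose group means spanned at least 1 and which were called, and Blk fell just short of that span at 0.99. For each, the genes with the most similar profile were those with the smallest Euclidean distance over the 6 arrays after centring each gene on its own mean. For Cd79a these were the calcium channel gene Cacna1e (distance 0.12), Syde1 (0.12) and the matrix protein gene Tnc (0.18). For Ms4a1 they were Hsdl1 (0.11), the matrix protein gene Sparc (0.15) and the sialidase gene Neu3 (0.16). The distance between Cd79a and Ms4a1 themselves was 0.37, and those from Cd79a to the other members ran from 1.47 to 2.77. The nearest genes were sought among all 19938 genes, of which 9 are members, so they say little about B lineage membership. The distance also grows with a difference in the size of a change. Ebf1 (1.47) and Fcrla (1.49), which also rose in DP but by less, were therefore far from Cd79a.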

How the data were processed

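Total RNA of 6 samples, 2 each of HSC, ProT and DP, was labelled with biotin and hybridised to Affymetrix arrays, per the labels' protocols. The deposited table holds log2 values for 35556 probe sets, made with RMA and Partek, per the submitters' processing notes; the sources used here do not give versions or settings. GEO's platform annotation linked 21789 probe sets to 1 gene, 1621 to several and 12146 to none, and the probe set with the highest mean stood for each of 19938 genes. Symbols were checked by gene identifier for 21698 probe sets and 0 differed. One model over all 6 arrays was fitted in limma 3.58.1 (R 4.3.3) with a mean per population and eBayes, and genes with a Benjamini-Hochberg adjusted p below 0.05, taken over all genes, were called. SEs are moderated, SDs are over 2 arrays, and no filter was applied. The fit was tested on simulated data. The members and the gene lists were chosen with earlier results of these data known. The olfactory genes' changes and other probe sets of listed genes were examined after the values were seen. Named genes were all members, in each list the 3 called genes with the largest change and 1 not called, and marker genes that bear on a member; Blnk, Syk and Vpreb2 were added after their values were seen. Replicate numbers were not used as a block. Median centring used the probe sets linked to 1 gene. Alternatives tried were quantile normalization, median centring, a replicate block, a dim-gene filter, other choices of probe set, another prior, fits of 2 groups, stricter thresholds and leaving out each array. Python 3.11.15 and matplotlib 3.10.9 made tables and figures. Protein sequences were not used here.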

Additional observations from a re-analysis of the deposited data

How the results depend on the processing

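Changes of single members kept their direction and their side of the threshold in 359 of 411 recomputed values, lost the call in 38, gained it in 2 and changed sign in 12. Cd79a and Ms4a1 were called in DP against both other populations under all 15 alternatives that tested them. With a minimum log2 change of 1, 0 members were called higher and 0 lower in ProT than in HSC. Of all 19938 genes, 692 were higher and 538 lower there. In DP 2 members were higher than in ProT and 2 higher than in HSC. Over all genes 879 were higher and 1420 lower in DP than in ProT, and 1021 higher and 1727 lower than in HSC. The filter on dim genes left 1 higher in each comparison with DP, because 2 of the 9 members were tested. Of the 10774 genes it kept, 2327 were higher in DP than in ProT and 2600 in DP than in HSC. The fall of Cd79b in ProT left 0 members called lower with a replicate block (adjusted p = 0.0609), in the fit of ProT and HSC alone (adjusted p = 0.108) and at a threshold of 0.01. Over all genes 1311, 779 and 644 were called lower under these settings, against 1375 in the main fit. Leaving out 1 array, where the lone array of its group is assumed to vary like the other groups, gave 0 to 1 members lower in ProT than in HSC, 4 to 6 higher in DP than in ProT, 4 to 5 higher and 0 to 1 lower in DP than in HSC; the 1 lower was Igll1 without HSC replicate 1. The values that changed sign were all uncalled: median centring gave -0.0704 for Ebf1 (ProT against HSC), 0.0658 for Igll1 (DP against ProT) and 0.0433 for Cd79b (DP against HSC), and quantile normalization gave 0.0799 for Cd79b and -0.0168 for Vpreb1 (DP against HSC). Without 1 array, Pax5 (ProT against HSC) ranged from -0.11 to 0.00403, Ebf1 from -0.045 to 0.0457, and, for DP against HSC, Cd79b from -0.06075 to 0.04365 and Vpreb1 from -0.11 to 0.21. The replicate block changed no other call of a member; replicate 1 deviations correlated between groups by -0.043 to 0.058 over all genes, so the numbers were not taken as pairs. Apart from the causes named, the cause was not tested. Signal over background could not be tested per probe, which limits what the low signals of Ebf1, Fcrla and Vpreb1 show.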

Other observations

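Genes that Pax5 is known to repress in B cells, a list of 8 that includes myeloid and T cell genes, went both ways. The Pax5 signal itself rose by 0.34 from ProT to DP, a change called under 10 of 15 alternatives. Its change from HSC to DP was called under 5 of 15. A link between Pax5 and these genes was not tested. From ProT to DP 3 of the 8 were higher and 3 lower, and from HSC to DP 4 were higher and 4 lower, with median log2 changes of 0.31 and -0.83. Grap2, an adaptor of T cell receptor signalling, was at 6.75 and 6.57 in HSC, 10.61 and 10.54 in ProT, and 12.19 and 12.18 in DP. Each step up passed the test (3.92 ± 0.09 and 1.61 ± 0.09). The chemokine genes Ccl3 and Ccl9 moved the other way, by -4.93 ± 0.27 and -5.07 ± 0.33 from HSC to DP.

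Jchain, which encodes the chain that joins IgM and IgA molecules, was at 4.85 and 4.75 in HSC, 9.15 and 8.10 in ProT, and 5.31 and 5.10 in DP. The rise in ProT (3.82 ± 0.32, adjusted p = 0.00102) and the later fall (-3.42 ± 0.32, adjusted p = 0.000742) both passed limma's test. Spib and Pou2af1, transcription regulators of B cells, were also highest in ProT. Spib went from 6.17 in HSC to 8.50 in ProT and 7.19 in DP, and Pou2af1 from 6.83 to 8.96 and 8.21, with both steps called for each. Cd79a and Ms4a1 were not called at the HSC to ProT step, where these genes rose. These 3 genes were picked after their values were seen.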
